A study of Mus musculus with 20 samples.

Results

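The small leucine-rich proteoglycans are secreted matrix proteins built on leucine-rich repeats, and 10 of their genes are described here: Fmod, Prelp, Omd, Kera and Lum, Ogn and Epyc, and Aspn, Dcn and Bgn. They are 10 of the 18820 genes tested, and each was read from the 1 probe set of the array that carries only its symbol. The family was chosen on values of these arrays: Fmod, Omd, Ogn, Prelp and Aspn had come to notice among the largest decreases with serotonin in one line, HypoE-46, and the other 5 were added as relatives. The changes of the 10 in that contrast are therefore given as a description, without a test.

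Total RNA of 2 mouse hypothalamic cell lines was measured on 20 Affymetrix gene arrays, 4 in each of 5 groups. In HypoE-46 (E46 below) the groups were controls, serotonin labelled 1 µg/ml and serotonin labelled 100 µg/ml, and in HypoA-2/12 (A2/12 below) serotonin labelled 100 µg/ml and controls, with a 24 h exposure in the source names. Cells of every group, controls included, had been moved to medium without serum before the exposure. The labels describe both lines as neuronal, E46 as sensitive to serotonin and A2/12 as unresponsive, and give no genotype beyond the line's name. Both are immortalised lines, so each group stands for 1 line in culture, and nothing in the labels tells if a group's 4 arrays stem from separate cultures. The p-values below then measure only the spread between arrays. The description field of the E46 serotonin arrays gives the doses the other way round, so doses are written as labelled 1 and labelled 100, as in the titles.

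Members of this family bind fibrillar collagen and set how thick and how regularly spaced its fibrils become. Aspn, Dcn and Bgn form one class, whose best known members, decorin and biglycan, carry chondroitin or dermatan sulfate chains and also bind TGF-beta. Fmod, Lum, Kera, Prelp and Omd form another, some of whose members carry keratan sulfate chains or sulfated tyrosines, and Ogn and Epyc belong to one more. In the brain such proteins are made mainly by fibroblasts of the meninges and of vessel walls, and not by neurons.

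The genes lie in few places of the mouse genome, which is why their promoters are set side by side. In the order of RefSeq (assembly GRCm38.p6) Prelp and Fmod are neighbours on chromosome 1, Dcn, Lum, Kera and Epyc follow each other on chromosome 10, Aspn, Omd and Ogn follow each other on chromosome 13 within the span of Cenpp, and Bgn is on the X chromosome. The RefSeq promoter table held 8 of the 10 genes by symbol, and Dcn and Lum were not matched. The 250 bases before the annotated start are shown for the 5 genes with the largest decreases in E46, 5′ to 3′ on the strand of the gene. Capitals mark any match, on either strand, of TATAAA, the TATA box, of CCAAT, a binding site of NF-Y, of GGGCGG, a site of Sp1, of TGANTCA, a site of AP-1, or of TGATGNAA, a site of the ATF4 and C/EBP pair, and the longest run that a pair of these promoters shares.
Prelp (chr1:133921402-133921651, minus strand): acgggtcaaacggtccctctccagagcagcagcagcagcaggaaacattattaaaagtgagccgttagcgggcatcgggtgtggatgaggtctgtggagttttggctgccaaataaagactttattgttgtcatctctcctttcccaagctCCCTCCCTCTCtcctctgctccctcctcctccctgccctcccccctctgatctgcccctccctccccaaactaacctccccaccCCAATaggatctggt
Fmod (chr1:134037004-134037253, plus strand): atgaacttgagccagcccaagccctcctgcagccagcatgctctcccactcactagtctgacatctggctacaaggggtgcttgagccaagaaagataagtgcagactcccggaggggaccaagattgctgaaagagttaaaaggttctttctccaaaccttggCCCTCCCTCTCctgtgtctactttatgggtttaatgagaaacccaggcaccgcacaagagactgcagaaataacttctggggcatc
Aspn (chr13:49544193-49544442, plus strand): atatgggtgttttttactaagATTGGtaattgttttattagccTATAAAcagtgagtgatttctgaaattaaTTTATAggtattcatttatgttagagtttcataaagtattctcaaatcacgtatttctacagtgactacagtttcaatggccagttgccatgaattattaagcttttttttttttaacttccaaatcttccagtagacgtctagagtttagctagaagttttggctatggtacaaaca
Omd (chr13:49582212-49582461, plus strand): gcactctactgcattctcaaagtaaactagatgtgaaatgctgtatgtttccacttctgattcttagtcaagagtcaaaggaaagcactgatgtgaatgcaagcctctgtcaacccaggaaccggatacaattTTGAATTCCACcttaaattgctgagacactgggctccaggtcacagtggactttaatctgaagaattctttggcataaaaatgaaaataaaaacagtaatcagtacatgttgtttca
Ogn (chr13:49607765-49608014, plus strand): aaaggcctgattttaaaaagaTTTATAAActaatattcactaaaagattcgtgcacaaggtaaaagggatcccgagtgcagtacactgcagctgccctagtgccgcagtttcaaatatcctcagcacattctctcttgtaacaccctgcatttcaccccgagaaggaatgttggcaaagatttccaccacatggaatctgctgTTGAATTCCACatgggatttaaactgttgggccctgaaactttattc
TATAAA was found in Aspn and Ogn, from 207 and 178 bases before the start in Aspn and from 229 and 227 in Ogn, and in 12.4% of the 32851 promoters of the table. Its matches in Ogn overlap each other on opposite strands. CCAAT was found in Prelp and Aspn and in 33.8% of all promoters. GGGCGG (32.7% of all promoters), TGANTCA (6.75%) and TGATGNAA (3.45%) were in none of the 5 windows. The longest shared runs joined neighbours on a chromosome: of the 10 pairs, Prelp and Fmod share CCCTCCCTCTC and Omd and Ogn share TTGAATTCCAC, each of 11 bases, while the other 8 pairs share runs of 7 to 10 bases. The first of these runs was in 131 and the second in 4 of the 32851 promoters, counting both strands. Neighbours did not always share the longer run: Aspn and Omd share 9 bases, while Prelp and Aspn, on different chromosomes, share 10. Such matches are a description of the letters.

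Without serotonin, 7 of the 10 members in E46 and 8 in A2/12 had mean levels above background. The arrays had upper quartiles of 8.09 to 8.31 and correlations of 0.933 to 0.998 between any 2 arrays, and no 2 were identical. The 4 lowest upper quartiles, up to 8.16, were those of control 1 and labelled 1 arrays 1 and 3 in E46 and of control 2 in A2/12. Values are log2 expression levels as normalized by the authors, so a difference of 1 is a doubling, and levels of different genes are not compared because each probe set has its own scale. A level was taken as above background where it exceeded 95% of 1155 odorant and pheromone receptor genes, a limit of 4.38 in E46 controls and 4.36 in A2/12 controls. All 4 control arrays of each line were above it for Fmod, Prelp, Omd, Ogn, Aspn, Dcn and Bgn, and none was for Lum or Epyc. Kera, a corneal proteoglycan, was above background on 4 of 4 A2/12 control arrays and on 0 of 4 E46 control arrays. Of the 17665 genes other than these receptors, 12775 had means above background in E46 controls and 12831 in A2/12 controls. The counts of the members are near these shares, and nothing particular to the family is read from them.

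The lines differed most in 4 members. This contrast uses the E46 control arrays on which Fmod, Omd, Ogn, Prelp and Aspn were picked, and a high E46 control favours a large decrease there, so its values for these 5 are a description and nothing is read from the counts. Of the 10, 1 was higher and 3 were lower in E46 controls than in A2/12 controls (limma, adjusted p below 0.05), against 21.1% of all genes higher and 18.1% lower, and the median difference was -0.19 over the members and 0.03 over all genes. Fmod, which encodes fibromodulin, had 10.49, 10.43, 10.34 and 10.50 in E46 controls and 7.58, 7.34, 7.34 and 7.48 in A2/12 controls. It was 3.00 ± 0.25 (SE) higher in E46, which is 8.02-fold. Dcn, which encodes decorin, showed the opposite order, with 8.01, 8.29, 8.21 and 8.26 in E46 controls and 11.77, 11.94, 12.00 and 11.97 in A2/12 controls. Its difference was -3.73 ± 0.17, 13.2-fold lower in E46 (adjusted p = 1.52e-13).

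Aspn and Kera were also lower in E46. Aspn, which encodes asporin, a binder of collagen and TGF-beta, averaged 7.97 ± 0.14 in E46 controls and 10.12 ± 0.13 in A2/12 controls (SD, n = 4 arrays each). Kera averaged 3.65 ± 0.12 in E46 controls, within the background, and 6.84 ± 0.27 in A2/12 controls, a measured difference of -3.19 that may be larger, since the E46 level is not above background (limma adjusted p = 1.75e-13). Ogn, which encodes osteoglycin, averaged 10.47 ± 0.13 in E46 controls and 11.42 ± 0.17 in A2/12 controls. Its 4 E46 values all lay below the 4 A2/12 values, with a difference of -0.95 ± 0.38. The 4 E46 values of Prelp also all lay below its 4 A2/12 values, with a difference of -0.38 (95% confidence interval -1.06 to 0.30). Each interval uses 1 spread per gene, shared by all 5 groups. For Prelp the SD was 0.04 in E46 and 0.07 in A2/12 controls, against 0.90 and 0.75 at labelled 100. Its interval is thus wider than the control arrays would give alone. The difference was -0.01 for Omd (-0.42 to 0.41). Bgn did not pass (0.01, -0.11 to 0.14). Row letters in the scan names separate the lines, so line and row cannot be told apart in these differences.

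**Figure D1:**
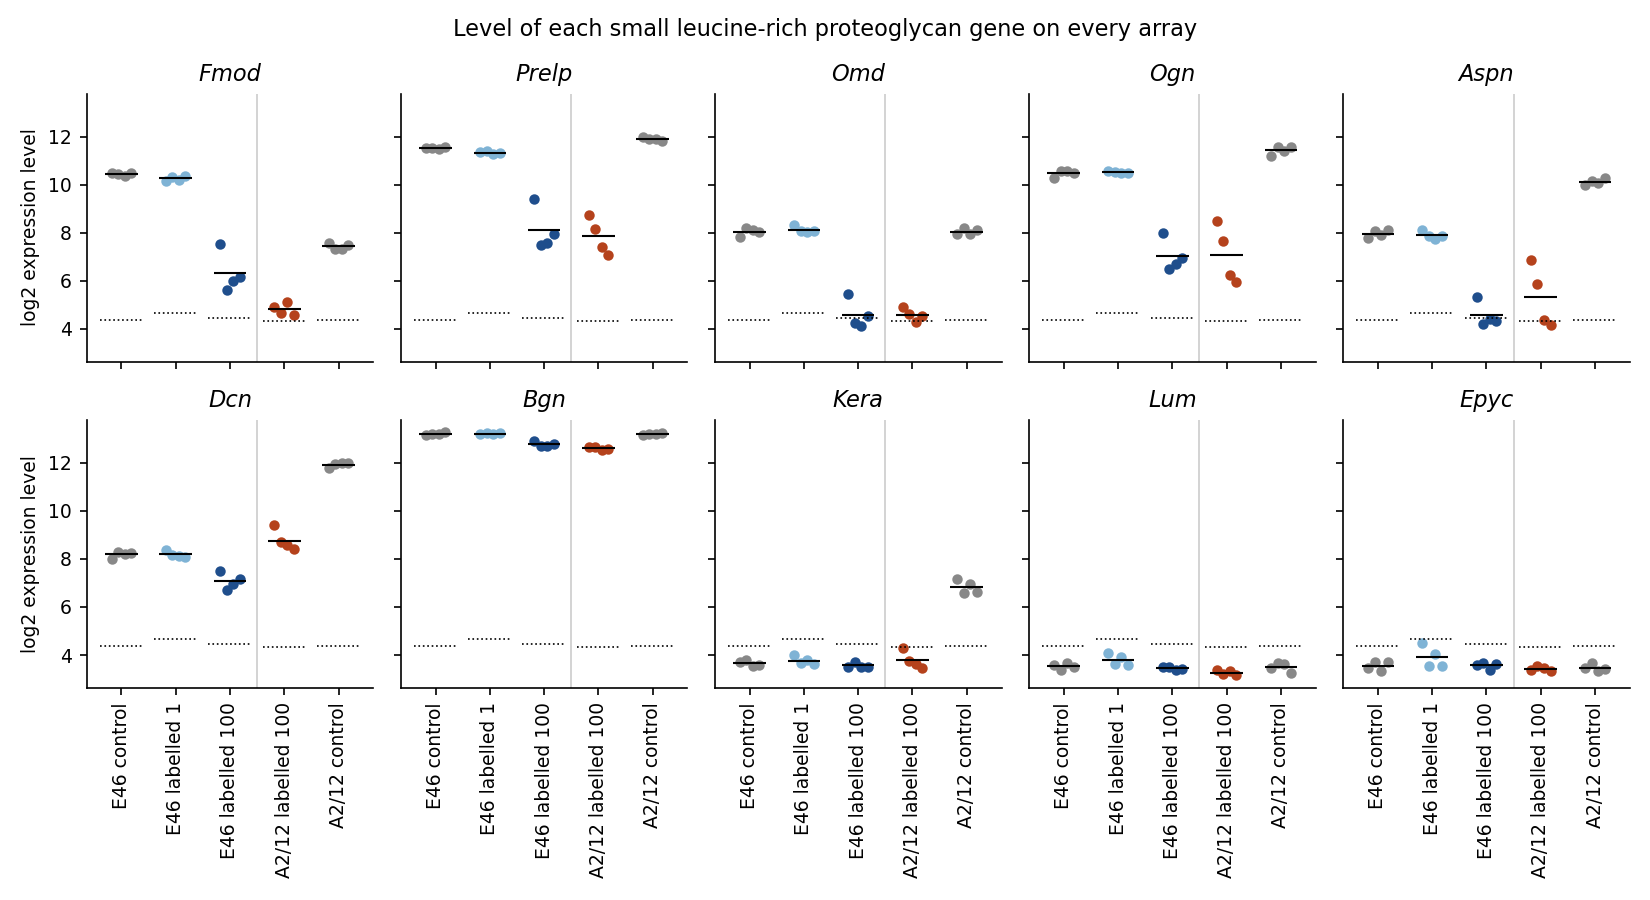
Log2 expression level (y axis) of the 10 genes on each of the 20 arrays, 1 panel per gene. Points are arrays, solid bars group means, dotted lines the background limit of each group. The E46 groups stand left of the grey line in order of labelled dose and the A2/12 groups right of it. Lum and Epyc stay below the limit in all 5 groups, and Kera is above it in A2/12 controls.

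In A2/12 cells, whose arrays the choice of the family did not use, serotonin labelled 100 went with lower levels of most members. Of the 10 members, 8 fell and 0 rose at an adjusted p below 0.05, against 21.1% of all 18820 genes that fell and 24.8% that rose. All 4 serotonin arrays lay below all 4 control arrays for the same 8 members, which was so for 19.9% of all genes. The median change was -3.10 over the 10 members and 0.00 over all genes. The choice used E46 and not A2/12 arrays, but the responses of the lines were already known when the family was chosen.

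The largest decreases in A2/12 were those of the chromosome 13 genes and Prelp. Aspn had 6.87, 5.85, 4.35 and 4.18 in A2/12 cells with serotonin labelled 100, against 9.98, 10.14, 10.07 and 10.29 in A2/12 controls. The serotonin arrays were spread (SD 1.28, against 0.13 in controls) and did not overlap the controls. Aspn fell by 4.80 ± 0.39, which is 27.9-fold (adjusted p = 1.3e-09). As 1 of its serotonin arrays was within the background, this fold may understate the change.
Ogn had 8.47, 7.66, 6.26 and 5.96 with serotonin and 11.19, 11.55, 11.41 and 11.55 in controls, so that arrays 1 and 2 were higher than arrays 3 and 4. It fell by 4.33 ± 0.38, or 20.2-fold (adjusted p = 4.52e-09). Omd, which encodes osteomodulin of bone matrix, had 4.93, 4.62, 4.27 and 4.54 with serotonin and 7.93, 8.20, 7.93 and 8.13 in controls. Its serotonin arrays lay at or near the background, and the change was -3.46 ± 0.20 (adjusted p = 6.78e-12).

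The pair on chromosome 1 fell as well. Prelp, whose protein links collagen to basement membranes, had 8.73, 8.18, 7.39 and 7.08 with serotonin and 11.98, 11.90, 11.91 and 11.82 in A2/12 controls, a change of -4.06 ± 0.33 (adjusted p = 1.12e-09). Fmod had 4.93, 4.67, 5.10 and 4.56 with serotonin and 7.58, 7.34, 7.34 and 7.48 in controls, a change of -2.62 ± 0.25 (adjusted p = 1.49e-08). All 4 serotonin arrays of Fmod were within 1 log2 unit of the background limit of 4.35, so its change may be larger than measured. In neither gene did the groups overlap.

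Among the chromosome 10 genes and Bgn the size of the change differed widely. Dcn had 9.39, 8.68, 8.57 and 8.39 with serotonin and 11.77, 11.94, 12.00 and 11.97 in A2/12 controls, and fell by 3.16 ± 0.17 (8.94-fold, adjusted p = 2.6e-12) while staying well above background. Kera had 4.30, 3.77, 3.62 and 3.47 with serotonin and 7.17, 6.60, 6.95 and 6.64 in controls. All 4 serotonin arrays were thus within the background, and the change was -3.05 ± 0.15 (adjusted p = 5.17e-13). Bgn, which encodes biglycan, a ligand of Toll-like receptors when released from matrix, had 12.65, 12.65, 12.54 and 12.58 with serotonin and 13.15, 13.21, 13.20 and 13.22 in controls. Its change of -0.59 ± 0.06 was the smallest of the 8, and the groups did not overlap (1.51-fold, adjusted p = 3.57e-08). The highest value of any probe set on an array was 13.73 to 14.03, so Bgn was read near the top of the scale, and the part of that in its small change was not tested. Lum (-0.23 ± 0.11, adjusted p = 0.0943) and Epyc (-0.04 ± 0.16, adjusted p = 0.877) stayed within the background in both groups.

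The count of 8 in A2/12 included the same 8 members without each array in turn, except that Lum joined them without A2/12 control 4 (9 members, Lum adjusted p = 0.0264). That array stood apart in macrophage markers, whose mean over 11 genes spanned 4.31 to 4.57 in A2/12 serotonin arrays and 4.28 to 5.91 in A2/12 controls. The scan names carry a row letter: serotonin arrays 1 and 2 and control 4 share row F, serotonin arrays 3 and 4 are in row G and the other controls in row E. Within row F alone the changes were -3.48 for Ogn, -3.37 for Prelp, -3.93 for Aspn and -2.60 for Kera, with no test, and with the row as a block 8 members fell.

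The E46 line is where the family was picked, and its values are given as they stand. With serotonin labelled 100, all 4 arrays lay below all 4 control arrays for Fmod, Prelp, Omd, Ogn, Aspn, Dcn and Bgn, 7 of the 10 members, which held for 19.4% of all genes. Fmod had 10.49, 10.43, 10.34 and 10.50 in E46 controls, 10.16, 10.31, 10.20 and 10.35 at labelled 1, and 7.55, 5.63, 6.01 and 6.16 at labelled 100. Its change at labelled 100 was -4.10 ± 0.25, or 17.2-fold. Array 1 of that group was the highest for each of these 7 genes.
Prelp had 11.52, 11.54, 11.47 and 11.57 in E46 controls, 11.36, 11.39, 11.25 and 11.32 at labelled 1, and 9.42, 7.48, 7.58 and 7.94 at labelled 100. Ogn had 10.28, 10.55, 10.57 and 10.48 in controls, 10.57, 10.54, 10.49 and 10.49 at labelled 1, and 8.00, 6.51, 6.71 and 6.95 at labelled 100. Prelp changed by -3.42 ± 0.33 and Ogn by -3.43 ± 0.38 at labelled 100, and both stayed above background.

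Omd and Aspn ended at or near the background in E46. Omd had 7.83, 8.19, 8.13 and 8.01 in E46 controls, 8.30, 8.09, 8.02 and 8.06 at labelled 1, and 5.47, 4.26, 4.13 and 4.53 at labelled 100, a change of -3.44 ± 0.20. Aspn had 7.79, 8.07, 7.92 and 8.10 in controls, 8.12, 7.87, 7.73 and 7.85 at labelled 1, and 5.35, 4.22, 4.43 and 4.34 at labelled 100, a change of -3.38 ± 0.39. At labelled 100, 2 of 4 arrays for Omd and 3 of 4 for Aspn were not above the limit of 4.45, so both changes may be larger than measured.
Dcn had 8.01, 8.29, 8.21 and 8.26 in controls, 8.38, 8.16, 8.12 and 8.06 at labelled 1, and 7.49, 6.68, 6.96 and 7.18 at labelled 100, a change of -1.11 ± 0.17. Bgn averaged 13.21 ± 0.05 in controls, 13.20 ± 0.02 at labelled 1 and 12.76 ± 0.11 at labelled 100 (SD, n = 4 each). Lum, Kera and Epyc were within the background in all 3 E46 groups, with mean changes between -0.10 and 0.01. The median change of the 10 members was -2.25 in this contrast, against 0.00 over all genes, of which 19.3% fell and 20.3% rose. Nothing is read from these values, which chose the family.

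At serotonin labelled 1 no member was called in E46. This contrast, too, uses the E46 control arrays on which the family was picked. None of the 10 members passed the test against controls (0 of 10 by limma), as was the case for all but 2 of the 18820 genes (0.0106%). At an unadjusted p below 0.05 there were 2 members, and 15.9% of all genes. The 2 members with a small unadjusted p, Lum (0.25 ± 0.11, adjusted p = 0.272) and Epyc (0.36 ± 0.16, adjusted p = 0.279), were within the background, with their highest values on array 1 at 4.09 and 4.51. Arrays 1 and 3 of this group are among the 4 arrays of low upper quartile, and without those 4 the changes were 0.06 for Lum and -0.04 for Epyc. For Fmod the change was -0.18 ± 0.25, with a 95% interval from -0.70 to 0.34, and for Ogn 0.05 ± 0.38, with an interval from -0.75 to 0.84. These intervals and tests use 1 spread per gene, shared by all 5 groups. The SD of Ogn was 0.13 in E46 controls and 0.04 at labelled 1, against 0.66 in E46 and 1.18 in A2/12 at labelled 100. Its interval is thus wider than the 2 groups compared here would give alone. The intervals of Dcn (-0.37 to 0.35) and Bgn (-0.13 to 0.12) were narrower. The labelled 1 arrays of Prelp all lay below the controls, by 0.19 in the mean, with an interval from -0.87 to 0.49. That interval, too, rests mostly on the labelled 100 arrays, as the SD of Prelp was 0.04 in controls and 0.06 at labelled 1. Between labelled 100 and labelled 1, which shares arrays with the contrast that chose the family, the median change was -2.16. With the doses as the description field gives them, the 7 decreases belong to labelled 1 and the group at labelled 100 has a median change of 0.02.

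**Figure D2:**
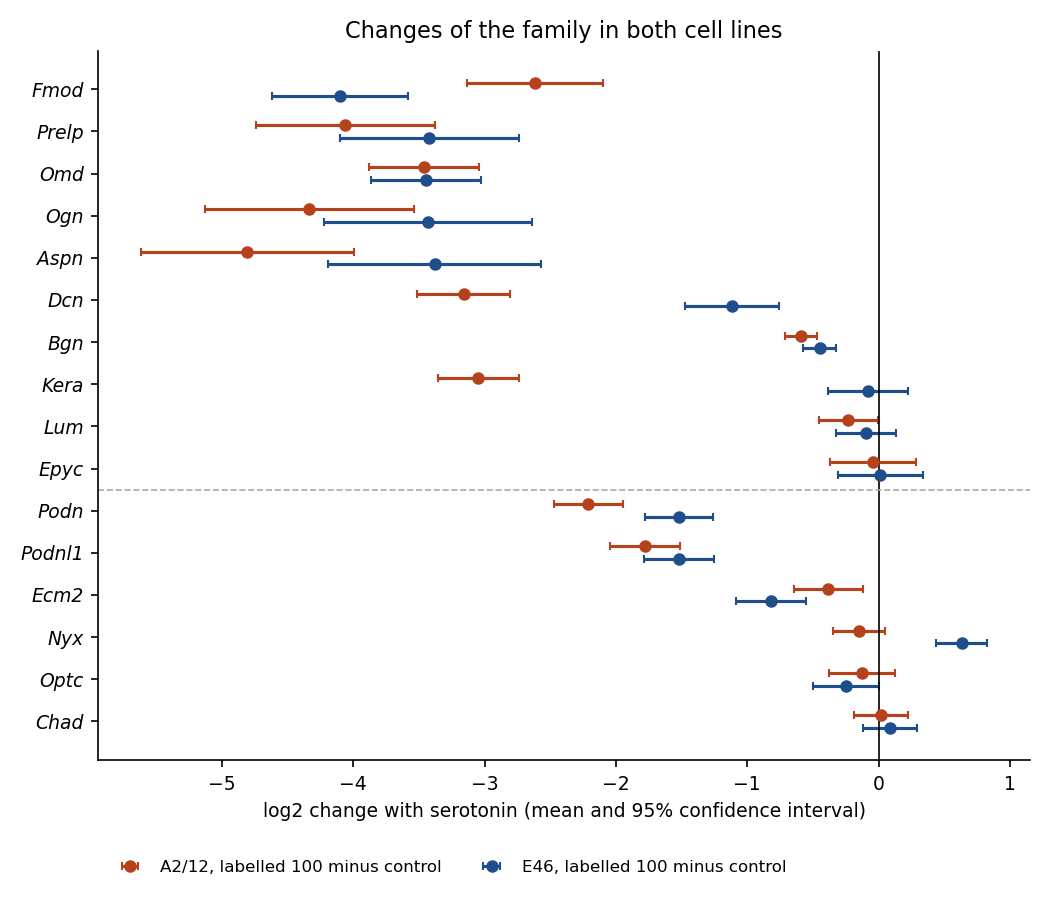
Log2 change with serotonin labelled 100 against controls (x axis) for the 10 members above the dashed line and 6 other genes of the family below it, in A2/12 (red) and E46 (blue). Points are differences of means of 4 arrays and bars 95% confidence intervals. Among the members, the intervals of Fmod, Dcn and Kera do not overlap between the lines, while those of Omd nearly coincide. Below the dashed line, those of Podn and Nyx do not overlap either. With labelled 100, Kera was within the background in both lines and Fmod was near it in A2/12.

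The size of the decrease at labelled 100 differed between the lines for some members. The difference of responses, E46 minus A2/12, holds the contrast that chose the family and is a description, with 22% of all genes called different. It was 0.02 for Omd (95% interval -0.57 to 0.61) and 0.14 for Bgn (-0.03 to 0.32), intervals that both include 0, which does not show that the lines respond alike. The measured decrease of Fmod was larger in E46, with a difference of -1.48 (-2.22 to -0.75), and it started 8.02-fold higher there. Its A2/12 serotonin arrays, at a mean of 4.82, were near the limit of 4.35, so the A2/12 decrease may be larger than measured and the order of the lines is not settled by this value. The decrease of Dcn was larger in A2/12, with a difference of 2.04 (1.54 to 2.55), and it started 13.2-fold higher there. Kera, with a difference of 2.97 (2.53 to 3.40), had no level above background to lose in E46. For Ogn (0.90, -0.22 to 2.03), Prelp (0.64, -0.32 to 1.60) and Aspn (1.42, 0.28 to 2.57) the intervals were wide. Without E46 serotonin array 1 the difference of Prelp was 0.20 and that of Ogn 0.59, and without A2/12 serotonin array 1 that of Ogn was 1.37. The median over the 10 members was 0.39, and 0.16 without E46 serotonin array 1.

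The 6 members that changed by at least 1 log2 unit in both lines varied together from array to array. After each group's mean was taken away, the 45 pairs of all 10 members had correlations of -0.07 to 0.98 over 20 arrays, with a median of 0.46. The 15 pairs among Fmod, Omd, Ogn, Prelp, Aspn and Dcn had correlations of 0.36 to 0.98, with a median of 0.76. Ogn and Aspn had the highest (r = 0.98), and Fmod and Aspn the lowest (r = 0.36). Bgn, which changed less, had correlations from 0.647 (with Aspn) to 0.845 (with Omd) with these 6, so joint variation was not confined to them. These arrays share cells, RNA and scan position, so the values are a description. Correlations among other genes that fell as far are not given here, so joint variation is not shown to be particular to the family. The labelled 100 groups varied most: the SD of Ogn was 0.66 in E46 and 1.18 in A2/12 at labelled 100, and 0.04 to 0.17 in the other 3 groups.
For each such array the decrease was expressed as a share of the mean change of the other arrays of its group. Over 6 members in E46, those that changed by at least 1 log2 unit, array 1 reached 0.65 of that mean and arrays 2 to 4 reached 1.05 to 1.21. Over 7 members in A2/12, array 1 reached 0.71, array 2 reached 0.92 and arrays 3 and 4 reached 1.16 and 1.24. Other genes that fell by at least 1 log2 unit were ordered in the same way but less far apart, at 0.79 on E46 array 1 (765 genes) and 0.87 on A2/12 array 1 (1203 genes). Genes that fell as far as the members were not taken alone, so the wider spread is not shown to be particular to the family. Array 1 was in row B in E46 and in row F in A2/12. Within row B alone, with 1 control array, Fmod changed by -3.91 and Prelp by -3.12 in E46, and the median change of the members was -2.14.

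**Figure D3:**
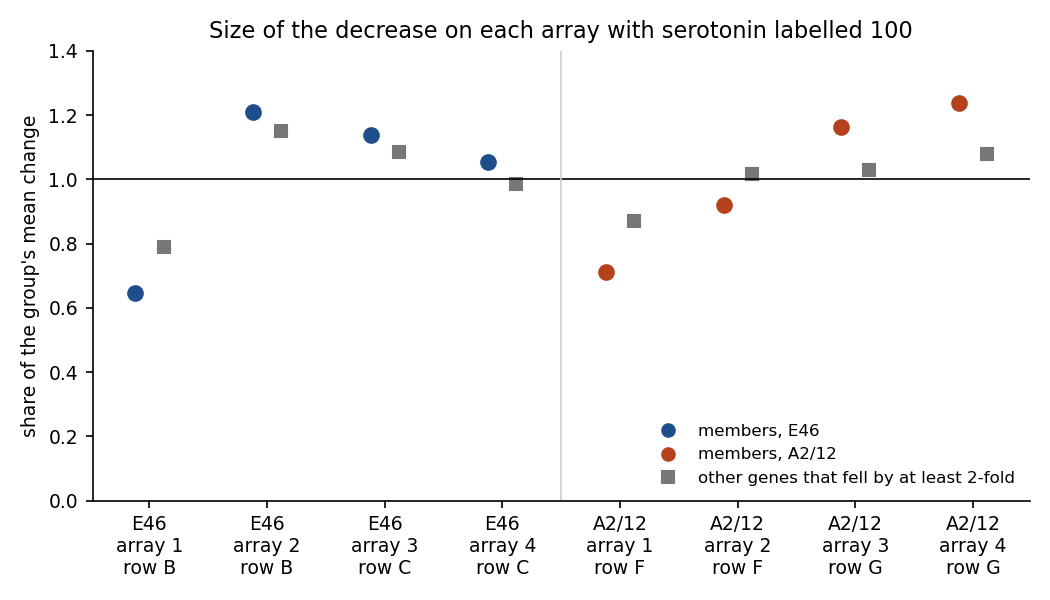
Size of the decrease on each serotonin labelled 100 array, for the members (circles) and for other genes that fell by at least 2-fold (grey squares). It is a share of the mean change of the other arrays of the same group (y axis, 1 is that mean). Array 1 is lowest in both lines, at 0.65 for members in E46 and 0.71 in A2/12, and the members spread further from 1 than the other genes. The other genes were not matched to the members by the size of their decrease.

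Some genes next to the family on the chromosomes fell as its members did, and others rose or did not pass. On chromosome 1, Atp2b4, a plasma membrane calcium pump on one side of Optc, Prelp and Fmod, fell in A2/12 (-2.42 ± 0.14) and in E46 (-2.56 ± 0.14) (limma adjusted p = 9.23e-12 in A2/12). On the other side Btg2, an antiproliferative gene, rose by 0.72 ± 0.10 in A2/12 and 0.70 ± 0.10 in E46. Optc, which lies between Atp2b4 and Prelp, did not pass in either.
On chromosome 13, Cenpp, the centromere gene whose span holds Aspn, Omd and Ogn, fell in A2/12 (-1.48 ± 0.16) and in E46 (-0.85 ± 0.16). The next genes, Nol8 (1.66 ± 0.10 in A2/12) and Iars (1.00 ± 0.07 in A2/12), which serve ribosome production and protein synthesis, both rose, and in E46 Nol8 rose by 1.36 ± 0.10 and Iars by 1.14 ± 0.07. On chromosome 10, Btg1 before Dcn rose by 1.12 ± 0.06 in A2/12 and 0.41 ± 0.06 in E46. Atp2b1, a calcium pump on the other side of the cluster, fell in A2/12 (-0.79 ± 0.09, limma adjusted p = 1.08e-07) and stood at 0.02 ± 0.09 in E46, and Ccer1, next to Epyc, passed in neither line. Lum and Epyc, between and beside the 2 genes that fell in A2/12, remained within the background. On the X chromosome, Haus7 before Bgn fell in A2/12 (-0.50 ± 0.08) and in E46 (-0.39 ± 0.08). Trex2, next to Haus7, fell in A2/12 (-0.27 ± 0.10, limma adjusted p = 0.0381), a call lost when any 1 of 6 arrays was left out (adjusted p up to 0.127, without serotonin array 3), and did not pass in E46. Atp2b3, on the other side of Bgn, and on chromosome 1 Chit1, next to Btg2, passed in neither line.

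**Figure D4:**
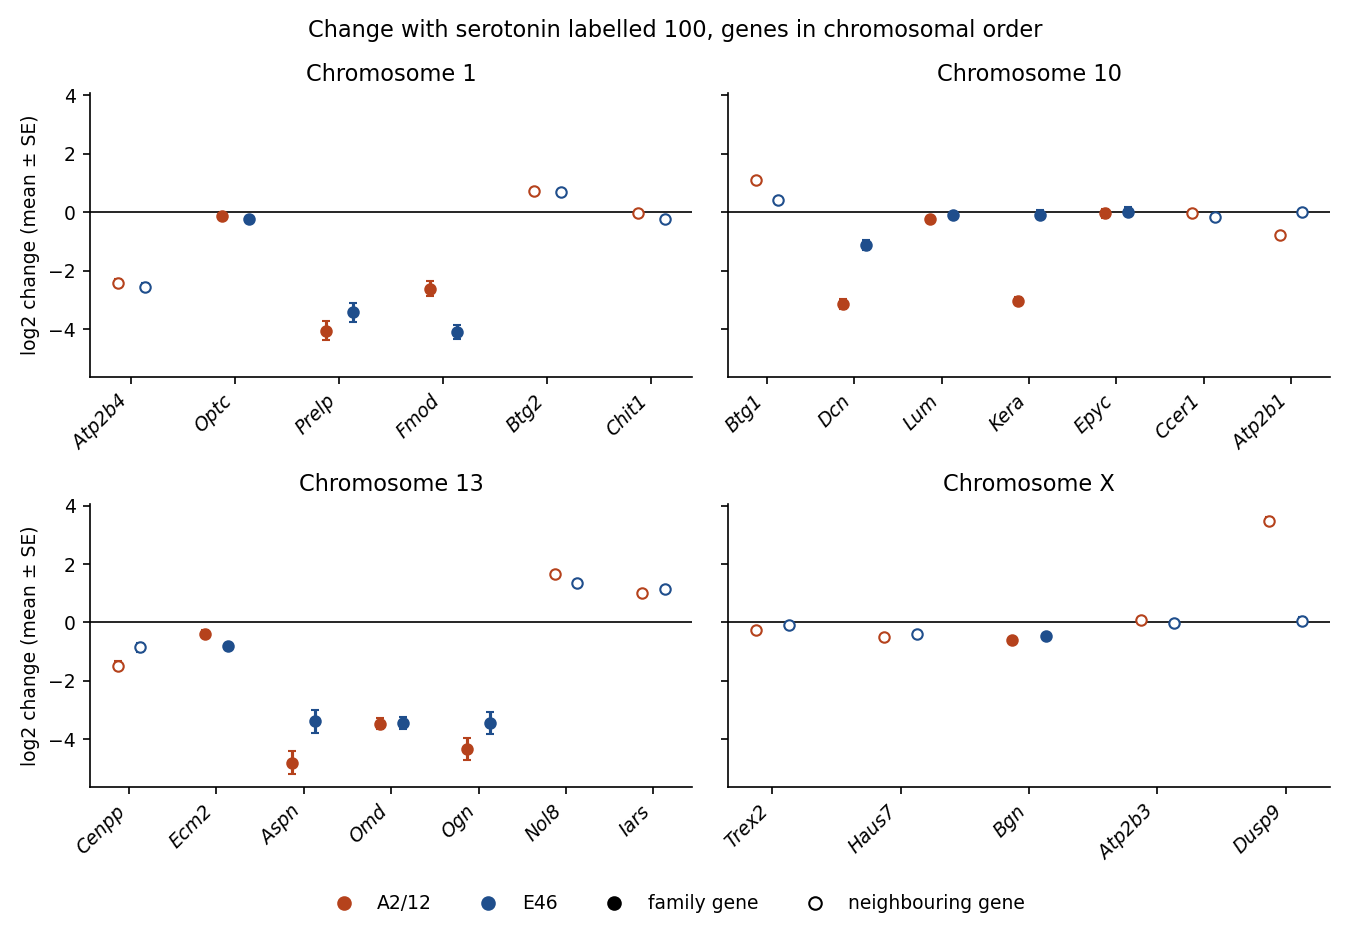
Log2 change with serotonin labelled 100 against controls (y axis, mean ± SE, 4 arrays a group) for measured genes in chromosomal order at 4 places, in A2/12 (red) and E46 (blue). Filled points are genes of the family and open points their neighbours. Nol8 and Iars rose in both lines next to Ogn on chromosome 13, and Dusp9, 2 genes from Bgn, rose by 3.48 in A2/12 and changed by 0.05 in E46.

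Of 7 further genes of the family, 6 were measured. In A2/12, Podn, Podnl1 and Ecm2 fell and 0 rose, and in E46 the same 3 fell and Nyx rose. Podn, which encodes podocan, had 7.45 ± 0.08 in A2/12 with serotonin labelled 100 and 9.66 ± 0.11 in A2/12 controls (limma adjusted p = 4.72e-12), and in E46 6.05 ± 0.28 with labelled 100 and 7.57 ± 0.17 in controls (adjusted p = 3.03e-09; SD, n = 4 each). It fell further in A2/12, by 0.69 ± 0.18 (adjusted p of the difference = 0.00635). Podnl1 fell in A2/12 (-1.78 ± 0.13) and in E46 (-1.52 ± 0.13), and the difference did not pass (0.26 ± 0.18, adjusted p = 0.377). Podn, like Dcn and Aspn, was lower in E46 controls than in A2/12 controls (-2.10 ± 0.12), and Podnl1, like Fmod, was higher (0.79 ± 0.13).
Ecm2, next to Aspn, fell in E46 (-0.82 ± 0.13) and in A2/12 (-0.38 ± 0.13) (adjusted p = 0.0169), and the A2/12 call was lost without A2/12 control 3 (0.0714) or control 4 (0.0752). Nyx, known from the retina, had 4.30 ± 0.20 with labelled 100 and 3.67 ± 0.07 in E46 controls, a change of 0.63 ± 0.09 (adjusted p = 1.22e-05), with only 1 of the 8 arrays above background. Optc and Chad passed in neither line, although Optc (-0.25 ± 0.12 in E46, adjusted p = 0.117) passed without E46 control 1 (0.0447).

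Collagens, which the family binds, and their cross-linking enzymes fell with it. Of 17 measured genes, 14 fell and 0 rose in A2/12, and 16 fell and 1, Loxl4, rose in E46 (0.46 ± 0.13), with medians of -2.41 in A2/12 and -1.85 in E46. Col1a2, a chain of type I collagen, fell in A2/12 (-3.04 ± 0.13) and in E46 (-1.88 ± 0.13). Col11a1, which seeds fibrils, fell in A2/12 (-2.71 ± 0.11) and in E46 (-0.68 ± 0.11). Col14a1, a fibril-associated collagen, had 4.95 in A2/12 with serotonin and 5.01 in A2/12 controls, and fell by 2.47 ± 0.12 in E46. The lists of this and the next paragraphs were drawn up with the earlier results known, and their counts are read only beside the shares of all genes given above.

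Enzymes that build the sugar chains had medians closer to 0. Of 21 genes for the linker and for chondroitin and dermatan sulfate, 9 fell and 2 rose in A2/12 and 10 fell and 3 rose in E46, with medians of -0.18 in A2/12 and -0.24 in E46. Chst12, a chondroitin sulfotransferase, fell in A2/12 (-1.85 ± 0.10) and in E46 (-1.79 ± 0.10), and Dse, the epimerase that makes dermatan sulfate, did too (-0.86 ± 0.06 in A2/12 and -0.57 ± 0.06 in E46). B4galt7, which adds the first galactose of the linker, rose by 0.97 ± 0.09 in A2/12 and by 0.37 ± 0.09 in E46. Chpf also rose in both lines (0.24 in A2/12 and 0.29 in E46) and Chst13 in E46 (0.28), and these 3 were named after their values were seen. The call of Chpf in A2/12 was lost without single arrays (adjusted p up to 0.119, without control 2), and that of Chst13 without E46 serotonin array 2 (0.0504).
Of 10 enzymes of keratan sulfate and tyrosine sulfation, 5 fell and 2 rose in A2/12 and 5 fell and 1 rose in E46. Chst1, a keratan sulfate sulfotransferase, fell in A2/12 (-1.78 ± 0.11) and in E46 (-1.36 ± 0.11). Tpst1, a tyrosine sulfotransferase, fell in A2/12 (-0.44 ± 0.06) and in E46 (-0.55 ± 0.06), and B4galt1 and Chst2 also fell in both. Chst5 fell in A2/12 (-0.49) and did not pass in E46. Tpst2 fell in E46 (-0.26) and rose in A2/12 (0.32), and B4galt4 rose in both lines. B4galt4 and Tpst2 were named after their values were seen. The call of Tpst2 in E46 was lost without control 4 (0.0629), and that of Chst2 in A2/12 without control 1 (0.059) or serotonin array 2 (0.0752).

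The enzymes that cleave the family moved both ways in A2/12. Of 11 genes, 7 fell and 3 rose in A2/12, and 10 fell and 0 rose in E46. Adamts5 fell in A2/12 (-2.72 ± 0.11) and in E46 (-0.97 ± 0.11), and Adamts1 did too (-2.98 ± 0.14 in A2/12 and -1.13 ± 0.14 in E46). Pcolce, an enhancer of the protease that trims procollagen, fell in A2/12 (-2.73 ± 0.14) and in E46 (-1.62 ± 0.14). The 3 that rose in A2/12, named after their values were seen, were the collagenase Mmp13 (2.85 ± 0.16, adjusted p = 3.46e-12), Adamts4 (1.39 ± 0.13) and Mmp3 (0.55 ± 0.18, adjusted p = 0.0183). Mmp13 had a mean of 10.82 with serotonin and 7.98 in A2/12 controls and was within the background in E46. The call of Mmp3 was lost without A2/12 control 1 (0.0526) or serotonin array 4 (0.0598).

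TGF-beta and BMP genes, whose ligands decorin, biglycan, asporin and fibromodulin bind, fell more often than they rose. Of 18 measured, 11 fell and 5 rose in A2/12, and 11 fell and 1, Smad4, rose in E46. Tgfb2, a ligand, fell in A2/12 (-2.92 ± 0.09) and in E46 (-1.14 ± 0.09), Tgfb3 did too (-2.50 ± 0.14 in A2/12 and -2.67 ± 0.14 in E46), and Bmp4 did too (-2.15 ± 0.09 in A2/12 and -1.09 ± 0.09 in E46). The 5 that rose in A2/12, again named after their values were seen, were the inhibitor Smad7 (0.47 ± 0.07), Smad2 (0.26 ± 0.07), Smad4, Skil and Tgfbr1, and the last 3 each lost the call without single arrays, with adjusted p up to 0.208 for Smad4 (without serotonin array 1), 0.0808 for Skil (without serotonin array 4) and 0.19 for Tgfbr1 (without control 2).
Of 12 receptors through which decorin and biglycan are known to signal, 8 fell and 0 rose in A2/12, and 8 fell and 1, Met, rose in E46 (0.54). Lrp1, an endocytic receptor of decorin, fell in A2/12 (-1.73 ± 0.08) and in E46 (-0.75 ± 0.08), Tlr4, a receptor of biglycan, did too (-1.46 ± 0.08 in A2/12 and -0.48 ± 0.08 in E46), and Egfr did too (-0.39 ± 0.10 in A2/12 and -1.94 ± 0.10 in E46). Among 26 other proteoglycans, 11 fell and 2, Gpc1 and Cspg5, rose in A2/12 and 12 fell and 0 rose in E46, with medians of -0.12 in A2/12 and -0.10 in E46. Gpc6, a glypican, fell in A2/12 (-3.52 ± 0.15) and in E46 (-1.79 ± 0.15), and Hspg2, which encodes perlecan, did too (-1.97 ± 0.09 in A2/12 and -1.13 ± 0.09 in E46).

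**Figure D5:**
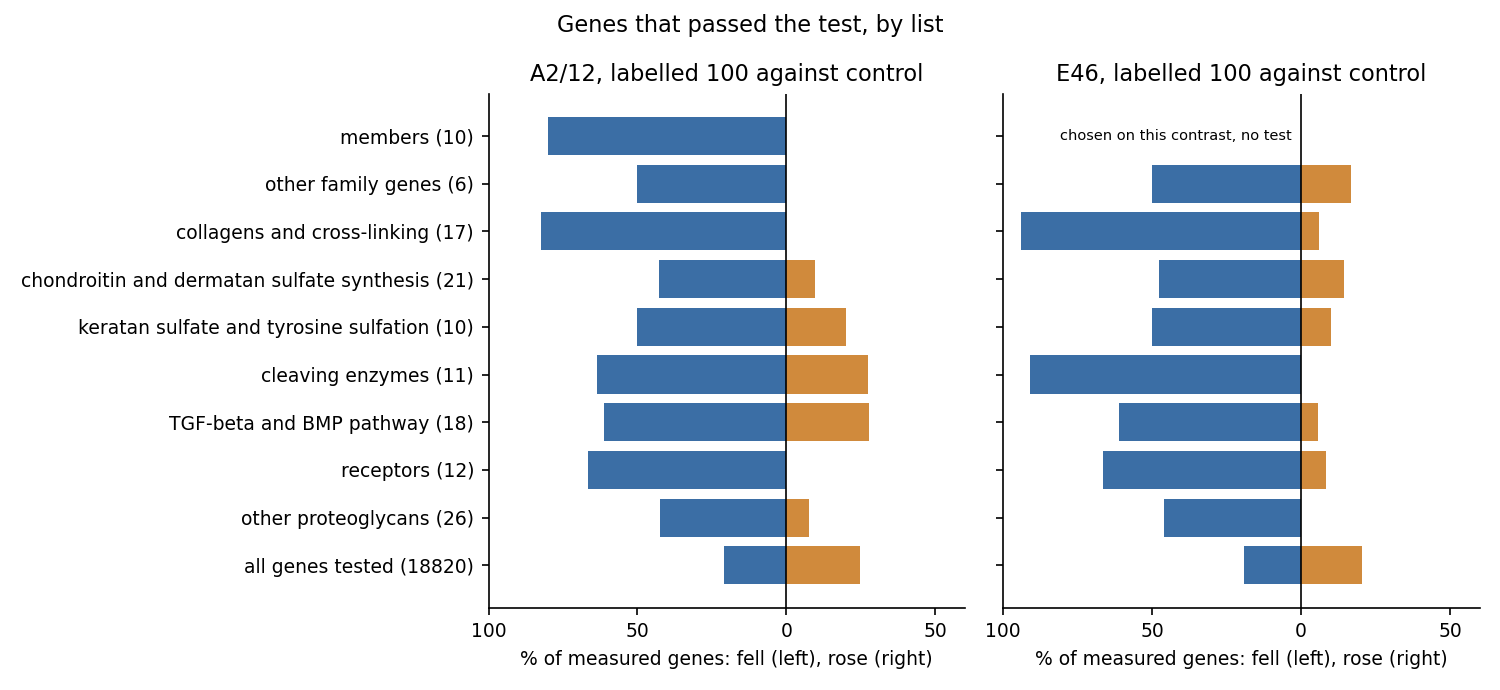
Share of the measured genes of each list (in brackets, their number) that fell (left of 0) or rose (right of 0) at an adjusted p below 0.05 with serotonin labelled 100 against controls, in A2/12 and in E46, beside all 18820 genes. Collagens stand at 14 of 17 fallen in A2/12 and 16 of 17 in E46, against 21.1% and 19.3% of all genes. The members are left out for E46, where they were chosen.

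Markers of cell types were read beside the family because fibroblasts are a known source of such proteins. Of 18 measured neuron markers, 9 were above background in each line's controls, among them Map2 (10.43 in E46 and 9.62 in A2/12 controls). Rbfox3, Snap25, Nefl, Dcx, Slc17a6 and Gad2, genes of mature or young neurons, were within the background in both lines. The last 4 of these were named after their values were seen, so the names do not stand for the list. Of 18 fibroblast and mural markers 16 were above it in both lines' controls, among them Pdgfrb (12.26 in E46 and 12.53 in A2/12 controls), Prrx1 (11.68 in E46 and 11.60 in A2/12) and Acta2 (12.56 in E46 and 12.10 in A2/12). Of 15 astrocyte and progenitor markers, 13 were above it in E46 controls and 10 in A2/12 controls. Of all 17665 genes other than the odorant and pheromone receptors, 12775 were above it in E46 controls and 12831 in A2/12 controls. The count of 9 of 18 neuron markers bears out the labelled neuronal type only in part, and the type of the cells was not tested.
The fibroblast list moved with the family. In A2/12, 15 of its 18 genes fell and 1, Thy1, rose, and its mean over genes was 7.97 to 8.23 on serotonin arrays and 9.29 to 9.39 on control arrays. In E46, 16 fell and 0 rose, with means of 7.02 to 7.38 at labelled 100 and 8.27 to 8.40 in controls. Islr, a secreted leucine-rich repeat protein, fell in A2/12 (-4.40 ± 0.23) and in E46 (-3.64 ± 0.23). Fewer cells of a type and less RNA per cell cannot be told apart in such bulk RNA. The part of a changed cell makeup in the decreases of the family was not tested.
The other marker lists held fewer calls for their size. Of 15 astrocyte and progenitor markers 8 fell and 1, Sox2, rose in A2/12 and 10 fell and 0 rose in E46. Hes1, a target of Notch, fell in A2/12 (-1.93 ± 0.09) and in E46 (-1.37 ± 0.09). Of the neuron markers, Map2, Syt1 and Stmn2 fell and Thy1 rose in A2/12, and Map2, Stmn2, Uchl1 and Thy1 fell in E46. Map2 changed by -1.92 ± 0.10 in A2/12 and by -1.79 ± 0.10 in E46. Of 11 cartilage, bone and tendon markers, Sox9, Bglap and Scx fell in A2/12, and Sox9, Col2a1, Alpl and Scx in E46. Scx, a tendon factor, fell in A2/12 (-0.83 ± 0.13) and in E46 (-2.10 ± 0.12). Of 8 endothelial markers, Tek and Emcn fell and Cdh5, Pecam1 and Vwf rose in A2/12, and Tek and Erg fell and Vwf rose in E46. Of 11 macrophage markers only Cd68 passed, and it rose in both lines (0.79 in A2/12 and 0.60 in E46). Of 8 epithelial markers, Cdh1 fell and Krt18 and Krt19 rose in A2/12, and Cdh1 and Cldn3 fell in E46. Single arrays decided the calls of Vwf in A2/12 (adjusted p up to 0.117, without serotonin array 4), of Cd68 in E46 (up to 0.106, without control 1) and of Stmn2 in E46 (0.0686, without serotonin array 3).

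The level patterns of the members were also set against all other genes above background in at least 1 group, 13477 in number, by Pearson's r over the 20 arrays. The genes most like Fmod were Pdp1, Shisa4, Ckb, Gper1 and Sorbs2, with r from 0.989 to 0.994, and like Dcn they were Adamts1, Srgn, Cdo1, Klf12 and Sema3d, with r from 0.987 to 0.992. Those most like Bgn were Plat, Lxn, Pid1, Ucma and Col1a1, with r of 0.988 or 0.989. Those most like Lum were Vmn1r86, Pcbd1, Tdpoz2, Uqcrb and Tbca, with r from 0.833 to 0.857, Lum itself being within the background. Such values rest mainly on the 5 group means, and the arrays of a group are not independent points.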

How the data were processed

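Total RNA of 2 mouse hypothalamic cell lines was measured on 20 Affymetrix arrays in 5 groups of 4. The values are log2 levels per probe set that the authors normalized with RMA and deposited, per the submitters' processing notes, which name no version. Of 35556 probe sets, 21218 carried 1 gene symbol. Of several for a gene the one with the highest mean was kept, which gave 18820 genes. One model with 5 group means was fitted with limma 3.58.1 (R 4.3.3, 15 residual degrees of freedom), p-values were adjusted by Benjamini and Hochberg over all genes, and the threshold of a call was an adjusted p of 0.05. The median 95% interval of a change reached 0.21 to either side, a precision that the 4 arrays of each group set. Array groups follow the titles.

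Members, lists and tests were chosen with earlier results of these data known. The text names the members, the rest of the family, up to 3 genes of each list with the smallest adjusted p in each line at labelled 100, the 3 highest marker genes and 4 defining neuron markers (of which Tubb3 was not measured), the chromosomal neighbours and the 5 genes most correlated with Fmod, Lum, Dcn and Bgn. Other names are said to have been chosen after their values were seen, as were Nefl, Dcx, Slc17a6, Gad2 and all remaining marker genes in small counts. Alternatives covered the normalization, the filter on dim genes, the probe set rule, array weights, the prior, the position and row of the scan names, the second dose label and leaving out arrays. Arrays with the same replicate number deviated from their group means with correlations of -0.22 to 0.37, so the numbers were not taken to pair them. Promoter letters are those of RefSeq (GRCm38.p6), read with Python 3.11.15.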

Additional observations from a re-analysis of the deposited data

Results flagged for a closer look

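In 80 groups of 4 arrays, each of a family gene, 2 single arrays stood apart by Dixon's criterion, which chance meets in about 1 of 20 groups. Kera on E46 serotonin labelled 100 array 2 stood at 3.73, against 3.52 on the nearest array, both within the background. Nyx on A2/12 serotonin labelled 100 array 3 stood at 3.34, against 3.66 on the nearest array, also within the background. The response to labelled 100 differed between the lines for Nyx, by 0.78 ± 0.13 (E46 minus A2/12, limma adjusted p = 0.000155), and for Podn, by 0.69 ± 0.18 (adjusted p = 0.00635). In Nyx the difference rests on levels near the background limit.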

How the results depend on the processing

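In A2/12 the count of members that fell was 8 to 9 when single arrays were left out, 8 with the replicate block and 8 with the row as a block. At labelled 1 in E46 it was 0 in each fit without 1 array (0 to 0) and 0 with the replicate block. Between the controls, a contrast that shares the E46 controls with the one that chose the family, calls in either direction were counted. Their count was 4 without single arrays (4 to 4) and 5 with the replicate block, where Ogn joined (limma adjusted p = 0.0485). Ogn also joined with quantile normalization (0.0488), the filter on dim genes (0.0405) and at position 5 alone (0.0011). Position 9 alone, with few arrays, left 7 of the 8 in A2/12, without Bgn (0.281), and position 7 alone lost Aspn between the controls (0.262). Lum passed in A2/12 with array weights (0.0148). Leaving out single arrays gave medians of -2.44 to -2.10 for E46 labelled 100 against controls, -2.40 to -1.995 against labelled 1 and 0.16 to 0.55 for the difference of responses. The filter on dim genes, which keeps 8 members, gave medians of -3.40 and -3.27 for the first 2.

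With the doses of the description field the medians were 0.023 for labelled 100 against controls, 2.16 against labelled 1 and 3.16 for the difference of responses, and 7 members passed at labelled 1. There Omd and Ogn changed by 0.076 and 0.048 at labelled 100 and by -3.44 and -3.43 at labelled 1. Against labelled 1 the changes were 3.92 for Fmod, 3.52 for Omd, 3.48 for Ogn, 3.23 for Prelp, 3.31 for Aspn, 1.10 for Dcn, 0.45 for Bgn, 0.35 for Lum, 0.65 for Ecm2, -0.46 for Nyx, 1.30 for Podn and 1.21 for Podnl1, and the difference of responses of Fmod was 2.43. Genes outside the family were not recomputed with these doses. In A2/12, Ecm2 stood at 0.022 at position 7 alone, Tgfbr1 at -0.007 at position 9 alone and Cd68 at -0.27 with the row block; the cause was not tested. At labelled 100, arrays of Omd and Aspn in both lines and of Fmod and Kera in A2/12 were at or near the background. This may limit their measured changes. Kera in E46, and Lum and Epyc in all groups, were within the background, while Prelp, Ogn and Dcn stayed above it at labelled 100. Bgn was read near the top of the scale, and the part of that in its small change was not tested.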

Other observations

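Some genes outside the family were called in 1 line at labelled 100 and are given because of their size, chosen after their values were seen. Dusp9, a phosphatase of MAP kinases that lies near Bgn, rose by 3.48 ± 0.15 in A2/12 (limma adjusted p = 9.19e-14) and changed by 0.05 ± 0.15 in E46. Emcn, an endothelial sialomucin, had a mean level of 4.42 with serotonin and 7.70 in A2/12 controls (-3.29 ± 0.13, adjusted p = 5.18e-14), and 4.12 with labelled 100 and 4.18 in E46 controls, within the background. Erg, an endothelial transcription factor, had 5.34 with labelled 100 and 8.13 in E46 controls (-2.79 ± 0.12, adjusted p = 1.06e-12), and 4.31 with serotonin and 4.44 in A2/12 controls. Kera, itself above background only in A2/12 controls, was most like Sparcl1, Tnfsf15, Agtr2, Pde7b and Gna14, with r from 0.99 to 0.992 over 20 arrays.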
